A study of Mus musculus with 4 samples.

Results

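Colony-stimulating factors and their receptors were followed at the RNA level across the cells of 4 transplanted mouse mammary tumours. The set holds 8 genes, found by their symbols among the 31053 mouse features of the deposited files: the ligands Csf1, Il34, Csf2 and Csf3, and the receptor genes Csf1r, Csf2ra, Csf2rb and Csf3r. All 8 were detected. The tumours grew from H605, a HER2-positive mouse mammary tumour line injected in the mammary pad of mice (strain FVB/NJ, 6 to 8 weeks old), and were taken at day 14. Of the tumours, 2 grew in wild-type hosts (WT) and 2 in hosts without the interleukin 1α gene (Il1a-/-), so the deletion was in the host and not in the injected cells. Live cells of all kinds entered droplet-based 3' sequencing with no sort for a cell type, and 1 tumour is 1 replicate.

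Colony-stimulating factors are secreted proteins that keep myeloid cells alive and steer their maturation. CSF-1, made by stromal cells and others, and interleukin 34 both bind the receptor tyrosine kinase CSF-1R on monocytes and macrophages. GM-CSF, the product of Csf2 and typically made by activated lymphocytes, binds an alpha chain encoded by Csf2ra that pairs with the shared beta chain encoded by Csf2rb. G-CSF, the product of Csf3, acts through CSF3R on neutrophils and their precursors.

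A UMI is a molecular tag that stands for 1 captured transcript. Levels are given as CPM, a gene's UMIs as parts in 1e6 of all UMIs of the same cells of the same tumour, and replicate 1 stands before replicate 2 throughout. Because 3' counting takes about 1 end per transcript, CPM needs no division by gene length. Cells were clustered without the 8 genes and named from marker genes, and each name ends in "-like" because it rests on those markers. Called cells numbered 3130 to 3868 per tumour, and the libraries held 6705368 to 29001333 UMIs, both Il1a-/- libraries being shallower than both WT libraries. The median cell held 3095 and 4174 UMIs in WT against 1349 and 2896 in Il1a-/- tumours. Il1a itself had 65 and 109 UMIs in WT and 1 and 0 in Il1a-/- tumours. Pairs of libraries shared 0 to 5 cell barcodes. Hosts were compared only in classes with at least 20 cells in every tumour. Tumour epithelial-like cells (241 and 138 in WT, 23 and 0 in Il1a-/- tumours) did not reach that number, nor did the neutrophil, endothelial, B/plasma and mast/basophil classes, so for these the levels are a description. Per the labels the WT and Il1a-/- tumours were taken as 2 pairs on separate days. Which replicate numbers share a day is not stated, so day is no term of the tests given here. Nor do they say that the tumours of a group came from separate hosts, and p-values measure only the spread between these samples.

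Promoter sequence is shown for 2 members: Csf1, the ligand called between hosts in T/NK-like cells below, and Csf2ra, a receptor chain whose difference between hosts, as seen in complement-rich phagocytes, did not pass the test. Each runs 5' to 3' along the gene's strand over the 250 bases before the RefSeq start (GRCm38.p6), and for Csf2ra the last bases lie inside the GENCODE gene. Capitals mark, in Csf1 (chr3:107760470-107760719), a motif of NF-kB, here on the opposite strand, and in Csf2ra (chr19:61228419-61228668) the motif GAGGAA, the core of sites for the myeloid factor PU.1. 
Csf1: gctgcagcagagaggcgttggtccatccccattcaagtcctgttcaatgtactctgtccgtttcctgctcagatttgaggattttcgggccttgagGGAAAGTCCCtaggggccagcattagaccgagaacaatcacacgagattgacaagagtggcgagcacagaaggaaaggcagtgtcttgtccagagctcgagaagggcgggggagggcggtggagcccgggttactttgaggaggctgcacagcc
Csf2ra: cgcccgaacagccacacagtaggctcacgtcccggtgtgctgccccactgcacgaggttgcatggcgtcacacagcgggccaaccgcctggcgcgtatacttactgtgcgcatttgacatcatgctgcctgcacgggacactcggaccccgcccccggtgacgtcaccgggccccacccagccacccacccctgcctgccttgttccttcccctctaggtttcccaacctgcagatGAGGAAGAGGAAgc
Both motifs, and a motif of the transcription factor AP-1 that occurred in neither sequence, were searched on both strands. The motif shown was chosen per gene, so its share over all promoters is no test. The NF-kB motif begins 154 bases before the start of Csf1 and occurred in 46 of 32851 mouse promoters of this length, or 0.140%. GAGGAA occurred in Csf2ra at 14 and at 8 bases before the start and in 23.3% of all promoters. A match describes the letters and shows no binding.

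The genes lie apart on the mouse genome (GRCm38 coordinates, GENCODE vM21 annotation). Csf1 is at chr3:107741048-107760469 on the minus strand and Il34 at chr8:110741829-110805924, also minus. Csf2 is at chr11:54247271-54249667, minus, and Csf3 at chr11:98701263-98703629, plus. The receptor genes are Csf1r at chr18:61100598-61132149, plus, Csf2ra at chr19:61223957-61228429, minus, Csf2rb at chr15:78325752-78353847, plus, and Csf3r at chr4:126024550-126044440, plus. Il34 and Csf2 overlap annotated antisense genes, and Csf1r overlaps Hmgxb3 on the other strand. Whether reads were counted by strand is not given in the sources used here. Csf2rb has a near copy, Csf2rb2, at chr15:78282507-78305721. Of the words of 25 letters in the longest coding transcript of Csf2rb, 32.6% also occur in any annotated transcript of Csf2rb2. Of the words in the last 500 bases of that Csf2rb transcript, where 3' reads fall, only 2.52% do. The split of reads between the 2 genes is uncertain to that degree.

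**Figure D1:**
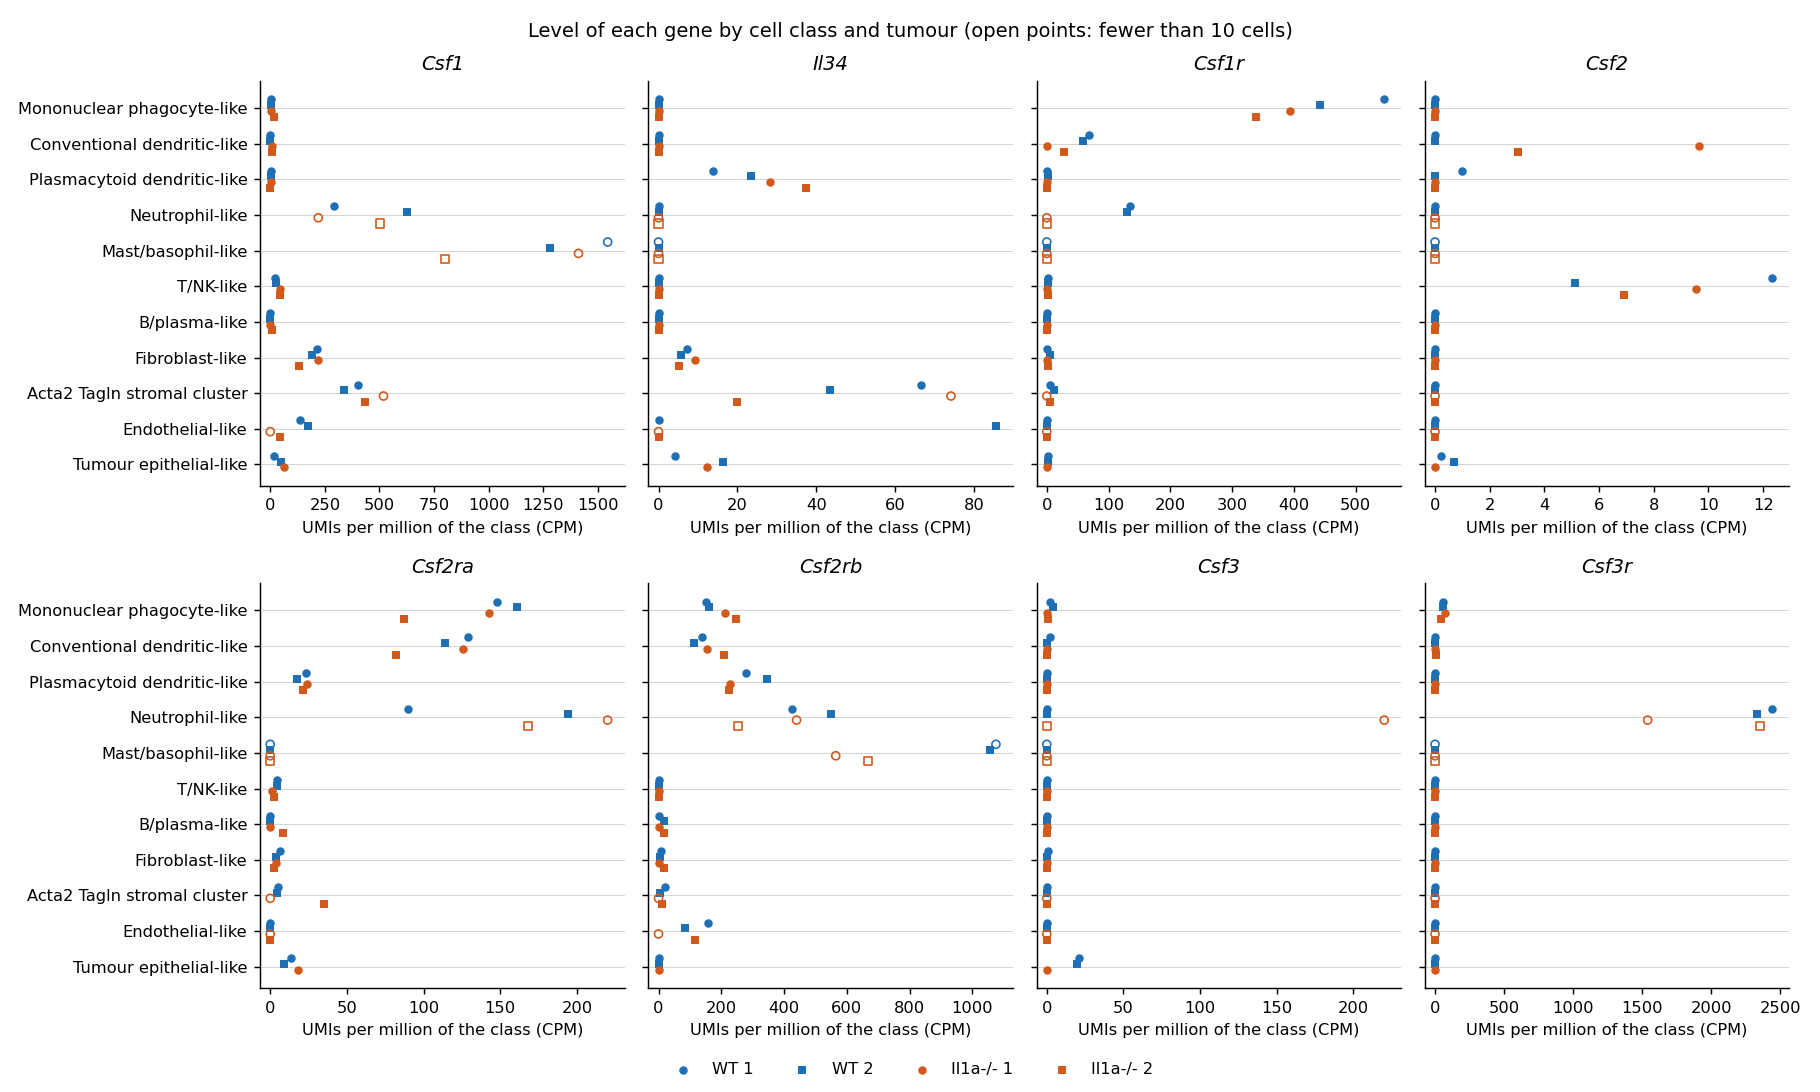
Level of each of the 8 genes (CPM, horizontal axis) by cell class (vertical axis) in each tumour; circles and squares mark replicates 1 and 2, blue WT and orange Il1a-/- hosts, and open points rest on fewer than 10 cells. Csf1r stood highest in phagocyte-like and Csf3r in neutrophil-like cells, whereas Csf1, Csf2ra and Csf2rb were spread over several classes. The Csf2 points of Il1a-/- conventional dendritic-like cells are 1 UMI each, and the Csf3 point of Il1a-/- neutrophil-like cells is 1 UMI in 6 cells.

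Csf1, the main ligand of CSF-1R, came from several classes at once. Fibroblast-like cells held 50.1% and 25.5% of all its UMIs in called cells in WT and 49.1% and 30.9% in Il1a-/- tumours. Their level was 212 and 190 CPM in WT and 218 and 133 CPM in Il1a-/- tumours, so the host groups overlapped. Many fibroblast-like cells lay in clusters that came mostly from 1 library. Without these clusters 98 of 301 and 112 of 131 cells remained in WT, and 41 of 275 and 81 of 216 in Il1a-/- tumours. The fitted difference on the log2 scale was then -0.14. The log2FC, the log2 fold change of Il1a-/- over WT, was -0.21 (SE 0.30, adjusted p = 0.932). Unless named otherwise, adjusted p-values come from edgeR's quasi-likelihood fit over all genes of a class, corrected by Benjamini and Hochberg's method, and a value called or passed is one under 0.05. The fit gives no standard error, so SE here is derived: the size of the log2FC divided by the square root of the test's F statistic. A small stromal cluster led by the contractile genes Tagln and Acta2 stood higher still. The naming rule left it unnamed, although all 7 fibroblast markers reached 50 CPM in it. Those markers summed to 45881 CPM there and to 59784 CPM in fibroblast-like cells. The cluster's Csf1 level was 404 and 336 CPM in WT, and 519 and 432 CPM in 2 and 14 cells of the Il1a-/- tumours. Mast/basophil-like cells had the highest level of any class, 1546 and 1282 CPM in WT and 1412 and 800 CPM in Il1a-/- tumours, from 5 to 12 cells per tumour and 5 to 40 UMIs. Neutrophil-like cells stood at 291 and 626 CPM in WT and at 220 and 505 CPM in Il1a-/- tumours, the last pair resting on 1 and 6 UMIs. Tumour epithelial-like cells stood at 17.6 and 49.8 CPM in WT and at 61.2 CPM in the Il1a-/- tumour that had any. Phagocyte-like cells themselves held little, between 2.86 and 15.5 CPM, which was under the level in free RNA (29.8 to 45.7 CPM over the libraries). In order of level, mast/basophil-like cells lay above the Tagln cluster and that above fibroblast-like cells in every tumour, whereas neutrophil-like cells and the Tagln cluster changed places between tumours.

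In T/NK-like cells, the largest class with 2266 to 2472 cells per tumour, Csf1 was higher in Il1a-/- hosts. It had 189 and 310 UMIs in WT and 164 and 371 in Il1a-/- tumours, which came to 24.0 and 26.4 CPM against 44.7 and 43.6 CPM. Both Il1a-/- tumours lay above both WT tumours, and the spread within a group was small beside the difference. The log2FC was 0.83 (SE 0.16, adjusted p = 0.0317, 1.78-fold). Of the 4 members that passed the low-count filter in this class, Csf1 was the 1 called, against 5.04% of all 11074 genes tested. T/NK-like cells held 22.8% and 23.6% of the tumour's Csf1 UMIs in WT and 43.0% and 50.1% in Il1a-/- tumours. With 1 WT library left out the call was lost (adjusted p = 0.1765 without WT replicate 1 and 0.1675 without WT replicate 2, in a range of 0.000692 to 0.1765 over all alternatives), at log2FCs of 0.75 and 0.93.

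Which lymphocytes held Csf1 differed between the hosts. In WT tumours most of it lay in a T cell cluster led by Il13, Ccl1, Il1rl1 (the IL-33 receptor) and Il4, genes of type 2 helper T cells. That cluster held 72.0% and 78.1% of T/NK-like Csf1 UMIs in WT and 15.2% and 31.3% in Il1a-/- tumours. Its own level was 145 and 143 CPM in WT and 130 and 145 CPM in Il1a-/- tumours, with overlap between the hosts. The log2FC there was 0.01 (SE 0.23, adjusted p = 0.998, with 3.57% of genes called in that cluster). In Il1a-/- tumours the largest part lay in a CD8 T cell cluster led by Ccl5, Cd8b1 and Cd8a together with Pdcd1, Lag3 and Havcr2, which encode checkpoint receptors. That cluster numbered 27 and 93 cells in WT and 891 and 628 cells in Il1a-/- tumours, and it held 0% and 1.61% of T/NK-like Csf1 UMIs against 70.1% and 39.6%.

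Csf1 in the CD8 cluster had 0 and 5 UMIs in WT and 115 and 147 UMIs in Il1a-/- tumours. The levels were 0 and 17.9 CPM in WT, where the 0 allows up to 37.3 CPM (3 UMIs), and 79.3 and 68.2 CPM in Il1a-/- tumours. Both Il1a-/- values exceeded both WT values. The log2FC was 2.44 (SE 0.55) and did not pass the threshold (adjusted p = 0.0885, with 0.431% of genes called). It passed without Il1a-/- replicate 1 or replicate 2, but such a fit leaves 1 Il1a-/- tumour, so that group's spread is not measured. A gate drawn per cell (a UMI of Cd8a or Cd8b1 and none of Cd4) took in more WT cells, 146 and 273 against 873 and 820. In that gate Csf1 stood at 13.5 and 7.72 CPM in WT and at 60.7 and 38.7 CPM in Il1a-/- tumours, again without overlap. This gave a log2FC of 2.28 (SE 0.40, adjusted p = 0.0192, 4.86-fold, with 2.03% of genes called), in a test added after the values were seen. Its adjusted p was 0.187 without WT replicate 1 and 0.510 without WT replicate 2. The largest part of the gate's cells came from the Tcf7 cluster described next in WT (57.5% and 38.1%) and from the checkpoint-gene cluster in Il1a-/- tumours (81.0% and 63.5%), so a change within cells and a change of cell makeup cannot be told apart in it.

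A further T cell cluster, led by S1pr1, Tcf7 and Ccr7, genes of naive and central memory T cells, showed the same direction at a low level. Its Csf1 was 8.81 and 9.99 CPM in WT and 31.7 and 35.3 CPM in Il1a-/- tumours, from 10 to 33 UMIs per tumour and without overlap. The log2FC was 1.79 (SE 0.35, adjusted p = 0.0365, with 1.14% of genes called). The call was lost without Il1a-/- replicate 1 (adjusted p = 0.0619) or replicate 2 (0.333). Over all T/NK-like cells outside the CD8 cluster, Csf1 was 24.3 and 26.6 CPM in WT and 22.1 and 35.2 CPM in Il1a-/- tumours, and the groups overlapped. Outside both the CD8 and the Il13 cluster it was 7.75 and 6.44 CPM in WT and 11.8 and 19.4 CPM in Il1a-/- tumours. A natural killer cell cluster of 1356 cells, with 324 to 371 in each tumour, held no Csf1 UMI at all, and a further 353 cells of a gamma-delta T cell cluster held none. Free RNA carried Csf1 at 30.04 and 29.8 CPM in WT and 45.7 and 37.6 CPM in Il1a-/- libraries. The 7 fibroblast markers summed to 41.6 and 45.9 CPM in T/NK-like cells of WT and to 31.1 and 26.2 CPM in those of Il1a-/- tumours, with none of the 7 at 0.

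**Figure D2:**
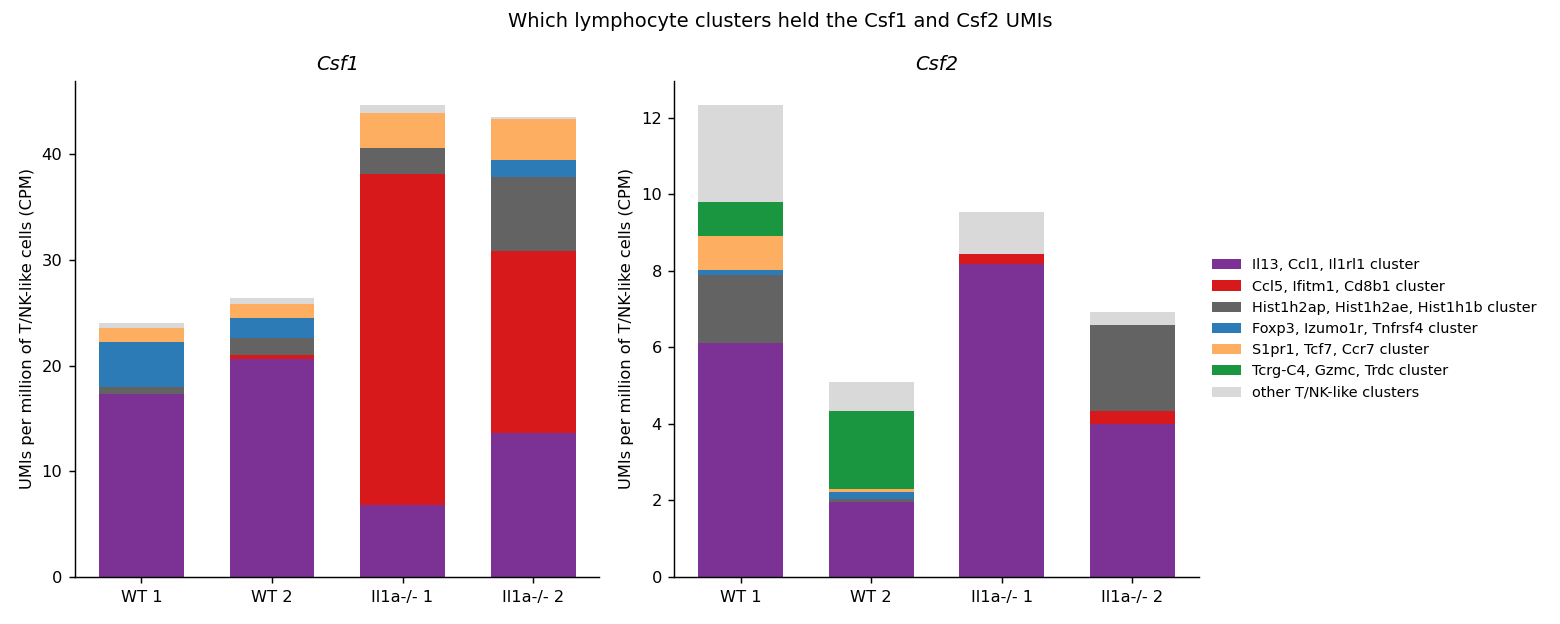
Csf1 (left) and Csf2 (right) in T/NK-like cells of each tumour: bar height is the class level in CPM, and each colour is the part of it that 1 cluster's UMIs make up, with clusters named by their leading genes. For Csf1 the CD8 cluster (red) made up 31.3 and 17.3 of 44.7 and 43.6 CPM in Il1a-/- tumours but 0 and 0.425 CPM in WT, where the Il13 cluster (purple) made up most of the bar.

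Il34, the alternative ligand of CSF-1R, was scarce, with 64 and 140 UMIs in WT and 18 and 29 in Il1a-/- tumours. Tumour epithelial-like cells held the largest part in WT, 31.3% and 50% of its UMIs, at 4.15 and 16.4 CPM, and 2 UMIs (12.2 CPM) in the Il1a-/- tumour that had any of these cells. The Tagln cluster had a higher level, at 66.5 and 43.6 CPM in WT and 74.1 and 19.9 CPM in Il1a-/- tumours, the last pair resting on 1 and 4 UMIs. It stood highest of all classes in 2 of the 4 tumours, since 3 UMIs in endothelial-like cells gave 85.5 CPM in WT replicate 2 and plasmacytoid dendritic-like cells led in Il1a-/- replicate 2. Plasmacytoid dendritic-like cells had 13.7 and 23.4 CPM in WT and 28.2 and 37.4 CPM in Il1a-/- tumours. Those groups did not overlap, at 7 to 16 UMIs per tumour. The log2FC was 0.95 (SE 0.45) and did not pass (adjusted p = 0.317). Fibroblast-like cells held 5.22 to 9.34 CPM of Il34, under their Csf1 level of 133 to 218 CPM. Phagocyte-like cells held no Il34 UMI in any tumour.

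Csf1r, the receptor for both ligands, marked the phagocyte-like class. These cells held 94.5% and 94.4% of its UMIs in WT and 97.2% and 95.9% in Il1a-/- tumours. The level was 546 and 442 CPM in WT and 395 and 339 CPM in Il1a-/- tumours, both knockout values lying under both WT values. The log2FC of -0.41 (SE 0.22) did not pass (adjusted p = 0.434). At least 1 Csf1r UMI was seen in 70.6% and 66.0% of the WT phagocyte-like cells and in 50% and 55.1% of those from Il1a-/- tumours. After each cell was thinned to 1000 UMIs, with 36 to 132 shallower cells per tumour left out, these shares were 37.1% and 37.4% against 28.5% and 26.0%. In T/NK-like cells, which should lack the receptor, 0.121% to 0.678% of cells had a UMI. Conventional dendritic-like cells lay below phagocyte-like cells in every tumour. The dendritic level was 67.6 and 59.2 CPM in WT, and 0 (exact 95% interval up to 35.6 CPM) and 27.3 CPM in Il1a-/- tumours. Their UMIs were 32, 39, 0 and 9, and the log2FC of -1.57 (SE 0.59) did not pass (adjusted p = 0.407). Neutrophil-like cells had 135 and 130 CPM in WT and no UMI in the 6 and 9 cells of Il1a-/- tumours.

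Phagocyte-like cells were also split per cell into a complement-rich macrophage gate (at least 2 UMIs of C1qa, C1qb and C1qc, and 0.1% of the cell's UMIs), a Ly6c2 monocyte gate (a UMI of Ly6c2, outside the first gate) and the rest. Of the phagocyte-like class, the C1q gate took in 56.3% and 57.0% (WT) and 24.7% and 28.9% (Il1a-/-). Csf1r stood at 633 and 480 CPM in the C1q gate of WT and at 397 and 458 CPM in that of Il1a-/- tumours. In the Ly6c2 gate it stood at 451 and 424 CPM in WT and at 505 and 323 CPM in Il1a-/- tumours, with overlap. The remaining cells had 375 and 369 CPM in WT and 326 and 270 CPM in Il1a-/- tumours. The receptor was thus lower in the rest than in the C1q gate of every tumour, while the C1q and Ly6c2 gates changed order in Il1a-/- replicate 1.

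**Figure D3:**
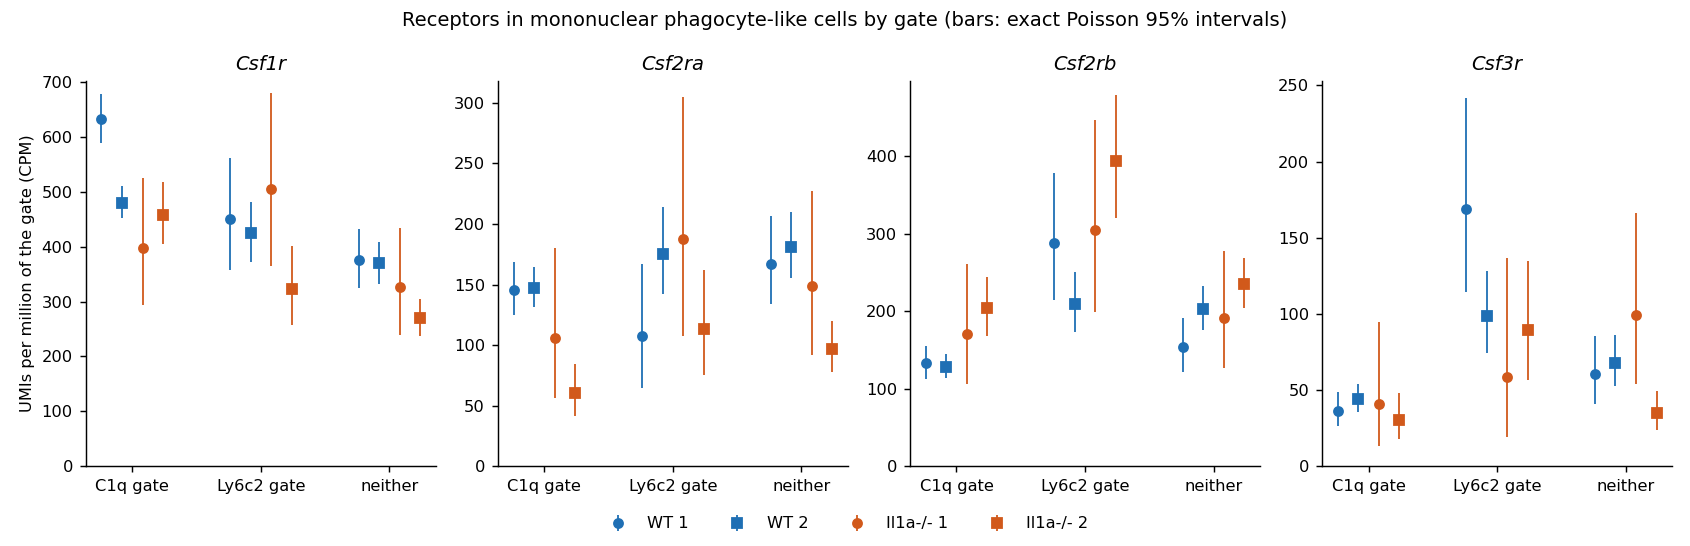
Levels of the receptor genes (CPM) in the C1q, Ly6c2 and remaining phagocyte-like cells of each tumour, with exact Poisson 95% intervals that cover counting error only. Csf1r was high in all 3 gates, Csf2rb was highest in the Ly6c2 gate of every tumour, and Csf2ra of the C1q gate lay at 105 and 60.1 CPM in Il1a-/- against 146 and 148 CPM in WT tumours.

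Csf2, which encodes GM-CSF, was almost wholly a lymphocyte transcript. T/NK-like cells held 97 and 60 of its 100 and 63 UMIs in WT and 35 and 59 of 36 and 60 in Il1a-/- tumours, and phagocyte-like cells held none. The level in T/NK-like cells was 12.3 and 5.10 CPM in WT and 9.54 and 6.93 CPM in Il1a-/- tumours. The WT values enclosed both Il1a-/- values, and the log2FC was -0.05 (SE 0.41, adjusted p = 0.95). Few cells carried it: 53 and 31 in WT and 8 and 22 in Il1a-/- tumours. In Il1a-/- replicate 1 a single cell held 24 of the 35 UMIs. Without the cell that held most of it in each tumour, Csf2 stood at 10.8 and 3.91 CPM in WT and at 2.999 and 5.64 CPM in Il1a-/- tumours, and the groups still overlapped. The Il13 cluster held the largest part in each tumour but WT replicate 2, with 49.5% and 38.3% of T/NK-like Csf2 UMIs in WT and 85.7% and 57.6% in Il1a-/- tumours, the 85.7% resting mostly on that single cell. In WT replicate 2 a gamma-delta T cell cluster led by Tcrg-C4 held 24 of the 60. The same cluster had 7 UMIs in WT replicate 1, but only 11 and 1 cells in the Il1a-/- tumours.

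Within T/NK-like cells that had a UMI of Il4, Il5 or Il13, Csf2 stood at 59.5 and 14.8 CPM in WT and at 291 and 81.1 CPM in Il1a-/- tumours. The highest of these values came from 24 UMIs in a single cell among 44. The log2FC of 2.08 (SE 0.62) did not pass (adjusted p = 0.115, with 2.42% of genes called), and it was 1.27 without that tumour. It passed in DESeq2 (adjusted p = 0.0223). It also passed without WT replicate 1 or without Il1a-/- replicate 2. Such a fit leaves 1 tumour in a group, so that group's spread is not measured. Csf1 in the same gate was 154 and 186 CPM in WT and 134 and 210 CPM in Il1a-/- tumours, with a log2FC of 0.14 (SE 0.29, adjusted p = 0.879). Il13 was seen in 24.5% and 12.9% of Csf2-bearing cells in WT and in 12.5% and 13.6% in Il1a-/- tumours. Among T/NK-like cells without Csf2 those shares were 4.79% and 5.11% in WT and 1.38% and 2.66% in Il1a-/- tumours. The 12.5% is 1 of 8 cells, and Ifng, Xcl1 and Lta were also more frequent in Csf2-bearing cells of every tumour. Csf2-bearing cells were also deeper, with median UMI counts of 4116 and 5970 in WT against 2803 and 4021.5 in the others, and of 1370.5 and 3403.5 in Il1a-/- tumours against 1238.5 and 2689. Depth's part in those shares was not tested. Il3, whose gene neighbours Csf2 and whose receptor shares the beta chain, had no UMI in any T/NK-like cell.

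Csf2ra, the GM-CSF-specific chain, was shared by several myeloid classes. Phagocyte-like cells held 57.8% and 74.6% of its UMIs in WT and 62.5% and 68.5% in Il1a-/- tumours. Their level was 148 and 161 CPM in WT and 143 and 87.5 CPM in Il1a-/- tumours, which did not overlap although 3 of the 4 tumours lay close together. The log2FC was -0.46 (SE 0.25, adjusted p = 0.444). Conventional dendritic-like cells had 129 and 114 CPM in WT and 125 and 82.0 CPM in Il1a-/- tumours, under phagocyte-like cells in every tumour. Plasmacytoid dendritic-like cells were lower in every tumour, at 17.2 to 24.1 CPM. Neutrophil-like cells had 89.7 and 194 CPM in WT and 220 and 168 CPM in Il1a-/- tumours, from 1 to 18 UMIs, and lay above phagocyte-like cells in 3 of the 4 tumours. Tumour epithelial-like cells held 13.1% and 4.61% of Csf2ra UMIs in WT, at 13.3 and 8.65 CPM, and 3 UMIs (18.4 CPM) in Il1a-/- replicate 1. Of the phagocyte gates, the C1q gate showed the widest gap between hosts: 177 and 321 UMIs in WT and 13 and 34 in Il1a-/- tumours, or 146 and 148 CPM against 105 and 60.1 CPM. There the log2FC was -1.01 (SE 0.31) and did not pass (adjusted p = 0.266, with 0.0822% of genes called). It was -0.64 without Il1a-/- replicate 2. The remaining phagocyte-like cells leaned the same way without overlap, at 167 and 181 CPM in WT and 149 and 97.2 CPM in Il1a-/- tumours. The Ly6c2 gate overlapped, at 107 and 175 CPM in WT and 188 and 113 CPM in Il1a-/- tumours. The difference between the gates was not tested.

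Csf2rb, the signalling chain shared with the interleukin 3 and interleukin 5 receptors, leaned the other way in phagocyte-like cells. Its level there was 153 and 160 CPM in WT and 212 and 248 CPM in Il1a-/- tumours, without overlap. The log2FC was 0.60 (SE 0.22) and did not pass (adjusted p = 0.285). Conventional dendritic-like cells had 137 and 114 CPM in WT and 154 and 210 CPM in Il1a-/- tumours (log2FC 0.64, SE 0.29, adjusted p = 0.510). Plasmacytoid dendritic-like cells carried the highest level of the tested classes in WT, 280 and 345 CPM. In Il1a-/- tumours they had 229 and 224 CPM, under both WT values (log2FC -0.43, SE 0.20, adjusted p = 0.325), and there they lay above phagocyte-like cells in replicate 1 and below them in replicate 2. Mast/basophil-like cells stood above all of these at 565 to 1075 CPM, from 2 to 33 UMIs per tumour, and neutrophil-like cells at 252 to 551 CPM. Within phagocyte-like cells the Ly6c2 gate was highest in every tumour, with 288 and 209 CPM in WT and 305 and 394 CPM in Il1a-/- tumours. The near copy Csf2rb2, whose product serves interleukin 3 in mice, stood at 397 and 550 CPM (WT) and 539 and 290 CPM (Il1a-/-) in plasmacytoid dendritic-like cells. In mast/basophil-like cells it was 739 and 513 CPM in WT and 847 and 667 CPM in Il1a-/- tumours, from 3 to 16 UMIs, which was higher in 3 of the 4 tumours. In phagocyte-like cells it stood at 43.0 and 51.6 CPM in WT and 82.9 and 68.5 CPM in Il1a-/- tumours (log2FC 0.67, SE 0.23, adjusted p = 0.251). Both chains of the GM-CSF receptor were seen in the same cell in 21.5% and 22.6% of the WT phagocyte-like cells and in 10.2% and 14.96% of those from Il1a-/- tumours, shares that move with the depth of the libraries.

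Csf3, which encodes G-CSF, was a transcript of the tumour cells. Tumour epithelial-like cells held 100 of 109 and 84 of 101 Csf3 UMIs in the WT tumours, at 20.8 and 19.6 CPM. In the Il1a-/- tumours all called cells together held 1 and 2 UMIs, and the 23 tumour epithelial-like cells of Il1a-/- replicate 1 held none, which allows up to 18.4 CPM. Phagocyte-like cells held 4 and 14 UMIs in WT, 13 of the 14 in a single cell. Summed over all called cells, Csf3 in Il1a-/- hosts was 3.30% of the WT level (exact counting interval 0.675% to 9.78%, both tumours of a group pooled). In edgeR's test it was the 1 member of 8 called in all cells (log2FC -4.79, SE 0.48, adjusted p = 0.0453), where 2.61% of genes were called. The call was lost when any 1 library was left out, and fewer of all genes were called in each of those fits too. Each leaves 1 tumour in a group, so that group's spread is not measured. In such a sum, fewer cells of a type and less RNA per cell cannot be told apart, and the tumour epithelial-like class held 241 and 138 cells in WT and 23 and 0 in Il1a-/- tumours. The other 7 members did not pass in that sum. Csf1r stood at 55.9 and 71.2 against 26.1 and 48.7 TMM-scaled CPM (adjusted p = 0.200), and Csf2ra at 24.7 and 32.8 against 14.7 and 17.6 (adjusted p = 0.0880).

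Csf3r, the G-CSF receptor, was highest by far in neutrophil-like cells, at 2444 and 2332 CPM in WT and 1540 and 2355 CPM in Il1a-/- tumours. The Il1a-/- values rest on 6 and 9 cells with 7 and 28 UMIs. Phagocyte-like cells had 55.1 and 58.6 CPM in WT and 68.6 and 41.4 CPM in Il1a-/- tumours, the Il1a-/- values enclosing the WT ones (log2FC -0.14, SE 0.26, adjusted p = 0.851). Because they were more numerous they still held 46.3% and 49.5% of Csf3r UMIs in WT and 66.7% and 69.9% in Il1a-/- tumours. Within them the level was higher in the Ly6c2 gate than in the C1q gate of every tumour, at 169 and 98.4 CPM against 36.2 and 44.1 CPM in WT, and at 58.7 and 89.6 CPM against 40.6 and 30.1 CPM in Il1a-/- tumours.

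Counted by class, 0 of the 4 members tested in phagocyte-like cells (Csf1r, Csf2ra, Csf2rb, Csf3r) passed in edgeR or in DESeq2. Of all genes, 0.156% were called in edgeR and 116 of 4704 (2.47%) in DESeq2. Csf2rb alone of the 4 had an unadjusted p under 0.05 in edgeR, against 1262 of 8952 genes (14.1%). In 3 of these 4 the groups did not overlap, against 47.7% of all genes tested there. In T/NK-like cells 3 of 4 did not overlap (Csf1, Csf1r, Csf2ra), against 57.4%. Csf2ra in that class was 4.71 and 4.42 CPM in WT and 1.09 and 2.35 CPM in Il1a-/- tumours (log2FC -1.22, SE 0.40, adjusted p = 0.119). In plasmacytoid dendritic-like cells 0 of 3 members passed in edgeR, and DESeq2, which gave an adjusted p for Csf2rb alone, called none. Of all genes there, edgeR called 2.43% and DESeq2 59 of 2839 (2.08%). The groups did not overlap for 2 of 3 (Il34, Csf2rb), against 46.1% of genes. Il34 was the 1 of them with an unadjusted p under 0.05 in edgeR, against 905 of 5889 genes (15.4%). In conventional dendritic-like cells 0 of 3 passed in edgeR, and DESeq2, which gave an adjusted p for Csf2ra and Csf2rb, called none. Of all genes there, edgeR called 0.0836% and DESeq2 9 of 3277 (0.275%). For 2 of 3 (Csf1r, Csf2rb) the groups did not overlap, against 40.2% of genes. Csf1r was the 1 of them with an unadjusted p under 0.05 in edgeR, against 472 of 4783 genes (9.87%). In fibroblast-like cells 0 of 3 (Csf1, Il34, Csf2rb) passed in edgeR and none had an unadjusted p under 0.05. DESeq2 gave an adjusted p for Csf1 alone and did not call it. There 0% of genes were called in edgeR, 464 had an unadjusted p under 0.05, and DESeq2 called 9.

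**Figure D4:**
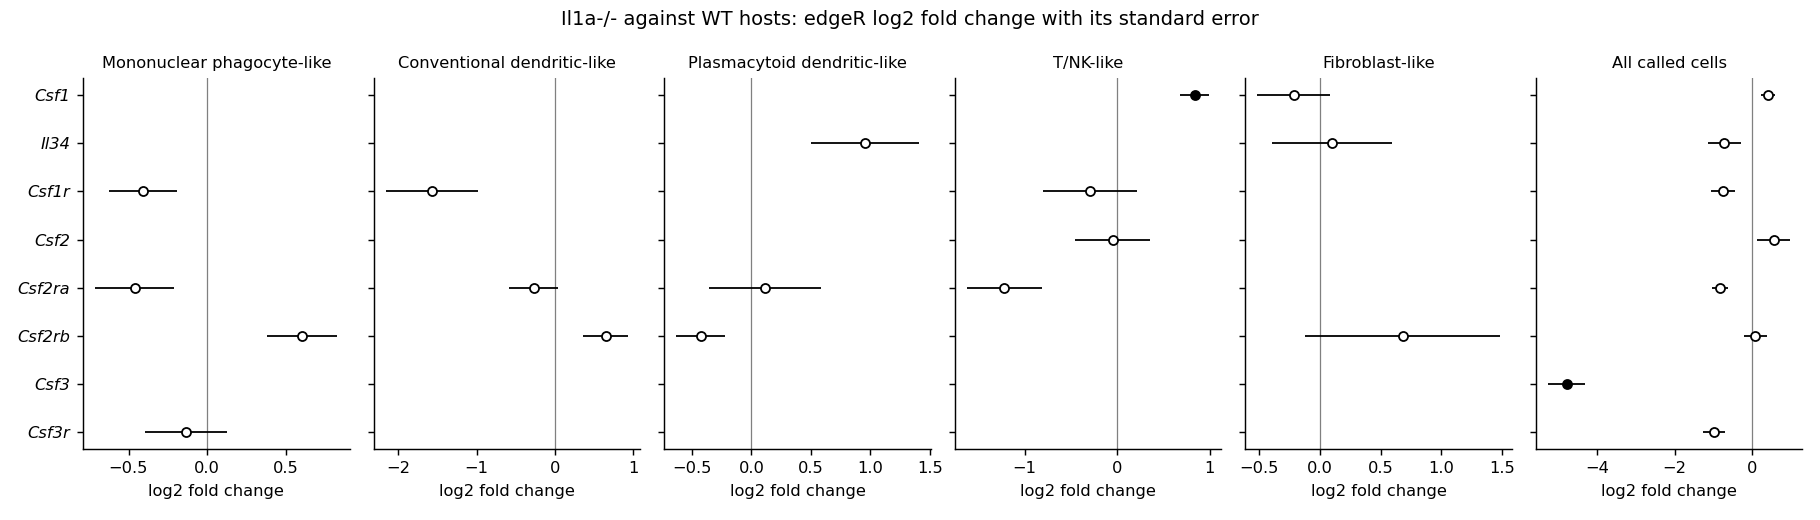
Log2FC of each member that passed the low-count filter, by cell class, with bars of the SE derived from the F statistic. Filled points had an adjusted p under 0.05 and each panel has its own axis. Csf1 in T/NK-like cells lay at 0.83 and Csf3 in all cells at -4.79, and the receptor genes in phagocyte-like cells lay between -0.46 and 0.60.

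Genes of the wider pathway were read from lists in the same fits. In phagocyte-like cells 1 of 13 macrophage maturation genes was called: C1qb, a complement subunit, at 1985 and 1491 in WT and 461 and 474 TMM-scaled CPM in Il1a-/- tumours (log2FC -1.89, adjusted p = 0.0384). The median log2FC of that list was -0.73, beside -0.02 over all genes tested. Of 12 monocyte genes 1 was called, Thbs1, at 82.4 and 52.9 in WT and 610 and 661 TMM-scaled CPM in Il1a-/- tumours (log2FC 3.24, adjusted p = 0.00906), and the list's median was 0.46. These lists were drawn up with such a difference in these data known. None of 12 genes known to respond to GM-CSF in myeloid cells passed there, and their median was 0.30; the widest differences among them were those of Ccl22 (2.16), Pim1 (1.23) and Il1rn (1.00).

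None of 16 genes of signal transduction passed in phagocyte-like cells, and their median was -0.04. Neither did any of 7 feedback genes (median -0.05) or of 15 myeloid transcription factors (median 0.42). Of 4 tested genes for related ligands and receptors none passed in phagocyte-like cells, nor did any of 5 in T/NK-like cells. The widest in phagocyte-like cells were Sdc1 (log2FC 2.34, adjusted p = 0.0542), which encodes a proteoglycan that can bind interleukin 34, then Csf2rb2 (0.67) and Il3ra (0.57). Of 10 genes that induce colony-stimulating factors none passed in either class, the widest after Il1a (-5.54, adjusted p = 0.0542) being Tnf (1.75) and Il1rl1 (0.75). Only 2 of the 12 granulocyte genes passed the filter in phagocyte-like cells and neither was called: Mmp8 (-0.69) and Mmp9 (-0.28).

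In T/NK-like cells, whose all-gene median was also -0.02, 5.04% of all genes were called, against 0.156% in phagocyte-like cells, so more calls in a list there show nothing particular to the list. Adjusted p was 0.00653 to 0.0394 for the genes named next. Of 15 signal transduction genes 2 were called: Stat3 rose (log2FC 1.10) and Ptpn6, which encodes the phosphatase SHP-1, fell (-1.28). Of 8 feedback genes Socs3 rose (0.82) and Cish fell (-0.81). Of 14 transcription factors Irf4 (1.60) and Egr1 (0.89) rose and Egr2 fell (-1.47). Of 12 lymphocyte cytokine genes Il21 rose (2.42, from 0.50 and 0.60 to 3.27 and 2.89 TMM-scaled CPM), and Xcl1 (-2.39) and the type 2 cytokine Il13 (-1.49) fell. Il13 stood at 92.5 and 142 in WT and at 40.0 and 43.3 TMM-scaled CPM in Il1a-/- tumours. Of 10 genes of the GM-CSF response list 2 were called, the survival genes Bcl2a1d (1.15) and Bcl2a1b (1.09), which rose. Of 9 monocyte genes S100a4 rose (1.49), and of 9 macrophage maturation genes Apoe (-1.17) and Cd81 (-1.97) fell. Apoe stood at 26.7 and 19.6 CPM in T/NK-like cells of WT and at 8.45 and 10.9 CPM in those of Il1a-/- tumours. In free RNA it stood at 1630 and 1754 CPM in WT and at 644 and 1298 CPM in Il1a-/- libraries. Cd81 was 39.7 and 48.1 CPM in T/NK-like cells of WT and 5.18 and 14.9 CPM in those of Il1a-/- tumours, beside 276 and 173 and 78.0 and 95.6 CPM in free RNA. Both genes were thus lower in the free RNA of Il1a-/- libraries too, whose part in their calls was not tested. The cell makeup of this class differed between the hosts as given above for the CD8 cluster, and its part in these calls was not tested.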

How the data were processed

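Cells of 4 tumours were profiled by droplet-based 3' single-cell RNA sequencing. The deposited files hold counts (UMIs per gene and barcode), made by the authors with Cell Ranger 3.1.0 per the submitters' processing notes. Barcodes with at least 500 UMIs, 250 genes and at most 20% mitochondrial UMIs were kept if they differed from free RNA (barcodes of at most 100 UMIs, FDR 0.001). The cells with the highest Scrublet doublet scores were then removed. Their number (83 to 128 per library) was set from the cell count, at 0.8% per 1000 cells. Cells were clustered with scanpy 1.11.5 (2000 variable genes without the members, Leiden resolution 1) and named from markers. Counts were summed per tumour and class and tested with edgeR 4.0.16 (R 4.3.3; quasi-likelihood, TMM, filterByExpr, Benjamini-Hochberg over all genes, threshold 0.05). DESeq2 1.42.0 was an alternative, with other alternatives given at the end. Per-sample CPM are plain sums; TMM-scaled CPM are named as such. Intervals cover counting error only. With 2 tumours a group, an exact permutation test could not go under p = 0.33, so none is given. The members, gene lists and the rule for named genes (all members, and list genes that were called or changed most) were chosen with earlier results of these data known. Tests within lymphocyte gates and clusters were added after values were seen. A gene that the rule names for likeness is not reported here.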

Additional observations from a re-analysis of the deposited data

Results flagged for a closer look

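Csf2rb, the shared beta chain, leaned in opposite directions between hosts in different myeloid classes. Its log2 fold change (Il1a-/- minus WT) was 0.60 in mononuclear phagocyte-like cells and 0.64 in conventional dendritic-like cells, where both Il1a-/- tumours lay above both WT tumours. In plasmacytoid dendritic-like cells it was -0.43, and both Il1a-/- tumours lay below both WT tumours. None of the 3 passed edgeR's adjusted threshold, and the difference between the classes was not tested. Groups did not overlap for 47.7% of all genes tested in phagocyte-like cells. The share was 40.2% in conventional and 46.1% in plasmacytoid dendritic-like cells. Csf2rb was flagged by a rule that asks for no overlap and opposite directions, so the pattern is no test.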

How the results depend on the processing

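The number of members called in T/NK-like cells was 1 and became 2 with no low-count filter, 2 with a per-cell marker gate and 2 with the replicate block, and ranged from 0 to 1 with 1 library left out. In all called cells it was 1 and became 3 with no low-count filter, 0 with only cells of at least 1000 UMIs, 4 with the replicate block, and 0 with any 1 library left out. The replicate numbers are not stated to pair tumours. Deviations of same-numbered tumours correlated at 0.320 over all called cells, 0.212 in T/NK-like cells and 0.351 in fibroblast-like cells. The correlation was 0.0408 in phagocyte-like, 0.00481 in conventional dendritic-like and 0.0876 in plasmacytoid dendritic-like cells. Within T/NK-like cells it was -0.046 in the Il13 cluster, 0.0147 in the CD8 cluster and 0.0684 in the Tcf7 cluster. The members gained with the block were Csf2ra in T/NK-like cells (edgeR adjusted p = 0.0470) and Csf1r (0.0484), Csf2ra (0.0351) and Csf3r (0.0484) in all called cells. Those gained with no filter were Csf2ra in T/NK-like cells (0.0275) and Csf2ra (0.0266) and Csf3r (0.0427) in all called cells. Calls over all genes changed too. In all called cells, 366 of 14040 genes were called in the fit given above. That became 2092 of 20320 with no filter, 1888 of 14040 with the block and 2 of 13987 with cells of at least 1000 UMIs. In T/NK-like cells 558 of 11074 became 1741 of 17320 with no filter. The member counts show nothing particular to the members. The share of UMIs in the leading class moved for Csf1 in fibroblast-like cells (51.8% with the per-cell gate), Csf1r in phagocyte-like cells (92.4% at Leiden resolution 2, 92.8% with the gate), Csf2 in T/NK-like cells (92.2% with the gate) and Csf2ra in phagocyte-like cells (57.3% at resolution 2).

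Reversed directions were all of uncalled differences (log2). Csf2 in T/NK-like cells became 0.15 with the gate, 0.076 with the block, 0.0088 at resolution 2, 0.0499 with cells of at least 1000 UMIs, and -0.56 to 0.67 with 1 library left out. Il34 in fibroblast-like cells became -0.99 with the gate, -0.19 with members among the variable genes, and -0.25 to 0.50 with 1 library left out, -0.017 without WT replicate 2. Csf1 in the Il13 cluster became -0.030 with no filter, -0.0071 with the block, -0.015 in DESeq2, and -0.13 to 0.085 with 1 library left out. With 1 library left out, Csf3r in phagocyte-like cells ranged from -0.35 to 0.21, Csf1 in fibroblast-like cells from -0.56 to 0.084, Csf2rb there from -1.62 to 1.36, Csf2ra in plasmacytoid dendritic-like cells from -0.076 to 0.41 and in conventional ones from -0.47 to 0.063, Csf2rb in all cells from -0.42 to 0.44, and Csf1 in the type 2 gate from -0.39 to 0.35. The causes were not tested. Of 354 alternatives for a log2 fold change 305 kept direction and side of the threshold, 11 lost a call and 15 gained one. A group left with 1 tumour was assumed to vary like the other. Of 16 shares of cells with a UMI, 15 moved on thinning. Thinning takes UMIs away from each cell, so such a move is built in. These shares depend on depth, and the count says nothing on the difference between hosts.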

Other observations

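The genes whose log levels most resembled a member's over 20 points (5 classes in 4 tumours, 11335 genes compared) are given as a description, since the points share libraries. The 5 classes are those with at least 20 cells in every tumour. Neutrophil-like cells, where Csf3r was highest, and tumour epithelial-like cells, which held most Csf3, are therefore not among the points. For Csf1r they were Clec4a3 (Pearson r 0.98), Ccl9 (0.98) and Ccl24 (0.97), and for Csf2ra Spi1 (0.99), which encodes PU.1, Pira2 (0.98) and Zfp710 (0.97). For Csf2rb they were Prcp (0.98), Mpeg1 (0.98) and Ly86 (0.97), and for Csf3r Fcgr1, Adgre1 and Ccl12 (0.99 each). For Csf1 they were S100a13 (0.97), Itih5 (0.97) and Hdgfl3 (0.96), and for Il34 Smim14 (0.95), Sgcb (0.94) and Ptprf (0.94). For Csf2 they were Cxcr6, Bcl11b and Lamb3 (0.92 each), and for Csf3 Ehf (0.83) and H2-M2 (0.82).

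Csf2-bearing T/NK-like cells more often held a UMI of the IL-33 receptor gene Il1rl1: 30.2% and 22.6% in WT and 12.5% and 36.4% in Il1a-/- tumours, against 14.2% and 13.9% and 3.61% and 9.70% of the other cells. The 12.5% is 1 of 8 cells. Ifng, Xcl1 and Lta were also more frequent in Csf2-bearing cells of every tumour, so this was not particular to Il1rl1. Csf2-bearing cells were also deeper, and the part of depth was not tested.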
